A study of Mus musculus with 12 samples.

Results

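The lung arrays described here were 3 of the 12 in the series, those with a log2 signal of Ucp1 above 9, and they were set against the other 8 arrays of db/db mice. Ucp1 encodes uncoupling protein 1 of brown adipocytes, so the arrays were chosen by a measured value, and what separates them from the others is described without a test. The Ucp1-high arrays were anti-IL-17A O3 replicate 1, isotype O3 replicate 4 and isotype air replicate 3, 1 from each condition of the db/db mice. Of these conditions, the first was O3 after treatment with anti-IL-17A, which binds the cytokine IL-17A (3 arrays), the second was O3 after an isotype control antibody (4 arrays), and the third was air after the same isotype control (4 arrays). All were female mice on a C57BL/6 background, 6 weeks old when bought and 10 weeks old when studied, and O3 was given at 2 ppm for 3 h, 24 h before the lungs were taken. The db/db mice are obese because the leptin receptor is missing its long form in every cell. A wild-type array from O3 with the isotype control stood outside the comparison. The labels name the left lung as the source of the RNA, whereas the methods of the study put the right lung into the RNA preservative, and neither says whether the arrays of a condition came from different mice, so that the spread between arrays may in part be technical.

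Brown adipocytes burn fatty acids to make heat. Uncoupling protein 1 lets protons back across the inner mitochondrial membrane without making ATP, and noradrenaline from sympathetic nerves starts the process by releasing fatty acids from lipid droplets. In mice, brown fat lies between the shoulder blades, around the neck and along the large vessels of the chest, and Ucp1 and Cidea, a lipid droplet protein, are its usual markers. White adipocytes share with it general adipocyte genes, among them Adipoq and Fabp4, but make leptin and little or no Ucp1.

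The values were log2 signals from Affymetrix mouse gene arrays, on which 1 unit is a factor of 2 in signal. Each gene was read by 1 probe set, and 21609 genes were measured. For each Ucp1-high array a deviation was taken, its signal minus the mean of the Ucp1-low arrays of the same condition. That mean rested on 2 arrays for anti-IL-17A, 3 for isotype O3 and 3 for isotype air. In a bulk lung sample, more cells of a type and more RNA per cell cannot be told apart.

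Ucp1 had signals of 10.53 in anti-IL-17A O3 replicate 1, 10.20 in isotype O3 replicate 4, and 10.12 in the air array, replicate 3. In the Ucp1-low arrays it had 3.50 and 3.53 after anti-IL-17A and O3, 5.08, 4.66 and 3.47 after O3 with the isotype antibody, and 4.03, 4.03 and 3.82 in air. The lowest array above the threshold was thus at 10.12 and the highest below it at 5.08, and no array lay between them. The deviations of Ucp1 were 7.01, 5.79 and 6.16, which are 129-fold, 55.5-fold and 71.6-fold in signal. The wild-type array had 4.0, within the range of the Ucp1-low arrays.

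Cidea followed the same division. Its signals were 5.93, 4.83 and 5.73 in the Ucp1-high arrays, in the order just given, and 3.15 to 3.30 in the 8 Ucp1-low arrays. The wild-type array had 3.15. Cidea was therefore higher in all 3 arrays, with no overlap, while for Ucp1 the division only restates the rule that chose the arrays. Zic1, a transcription factor of classical brown fat, lay at 3.82, 3.66 and 3.33 in the Ucp1-high arrays and between 3.40 and 3.63 in the Ucp1-low arrays, and Lhx8, another, lay at 4.24 to 4.70 and at 4.01 to 4.43, so that the arrays overlapped for both. Elovl3, a fatty acid elongase induced by cold in brown fat, had 4.47 in anti-IL-17A O3 replicate 1 and 3.64 in isotype O3 replicate 4, both above the Ucp1-low arrays. It was at 3.05 in isotype air replicate 3, against 3.07 to 3.29 in the Ucp1-low arrays.

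**Figure D1:**
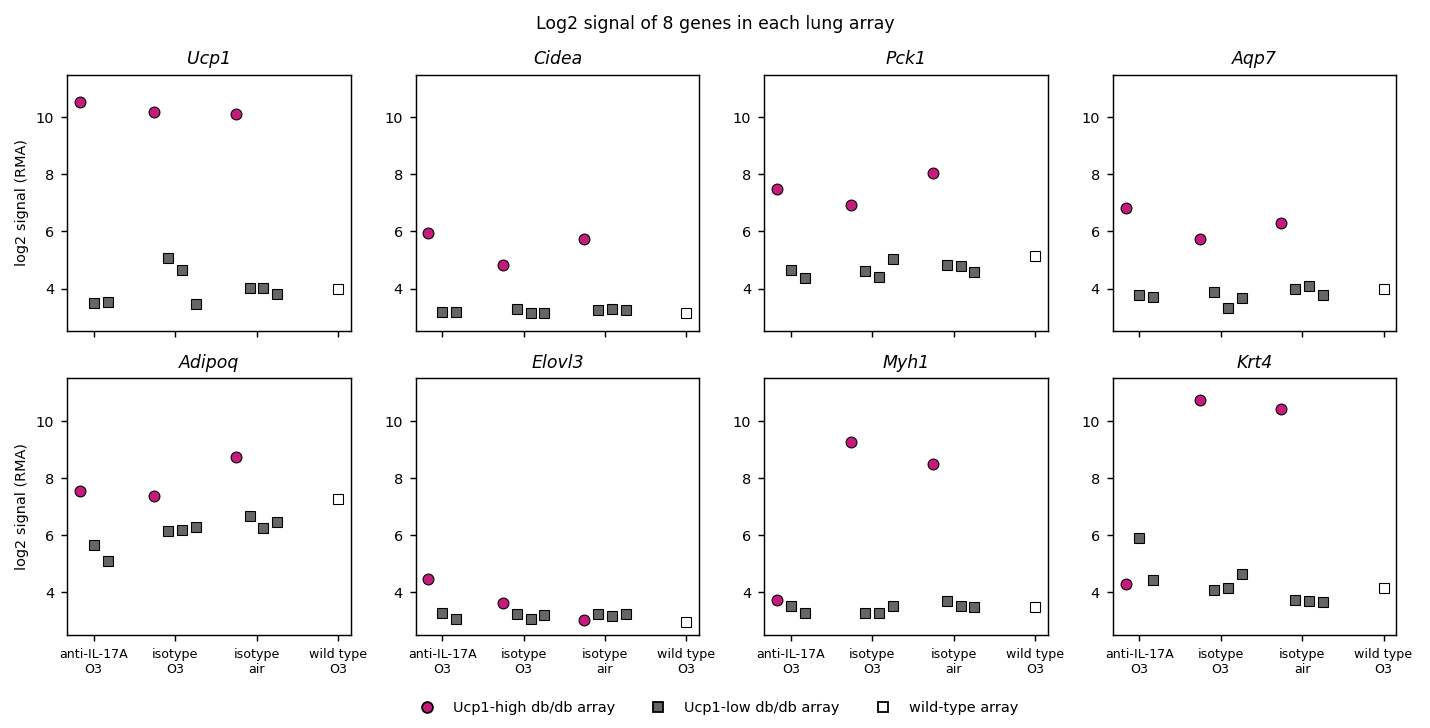
Log2 signal (vertical axis) of 8 genes in every array, grouped by condition along the horizontal axis, with Ucp1-high arrays as circles and Ucp1-low arrays as squares. Ucp1 was at least 10.12 in the circles and at most 5.08 in the squares, whereas Myh1 and Krt4 were high in 2 of the 3 Ucp1-high arrays.

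Counting Ucp1, 30 genes were at least 1 log2 unit higher in all 3 Ucp1-high arrays than in the Ucp1-low arrays of their condition. They made up 0.139% of the genes measured. Of these 30, 27 lay above each of the 8 Ucp1-low arrays in all 3 Ucp1-high arrays, a separation seen in 416 genes, or 1.93%, of all genes measured. Since the deviation itself selected the 30, nothing is read from that count. The median deviation of the 30 genes was 1.83 in anti-IL-17A O3 replicate 1, 1.53 in isotype O3 replicate 4, and 1.81 in the air array, replicate 3, and the median over all genes was 0.09, -0.01 and -0.03 in these arrays. Of the 30, 14 belonged to a list of brown, beige, white or general adipocyte genes or to the lists of their transcription factors, uncoupling proteins and lipid droplet proteins. In that order these lists held 25, 6, 10, 27, 12, 6 and 8 of the 21609 genes measured, and some genes were in more than 1 list. The lists were chosen with earlier results of these data known, so nothing is read from the 14.

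**Figure D2:**
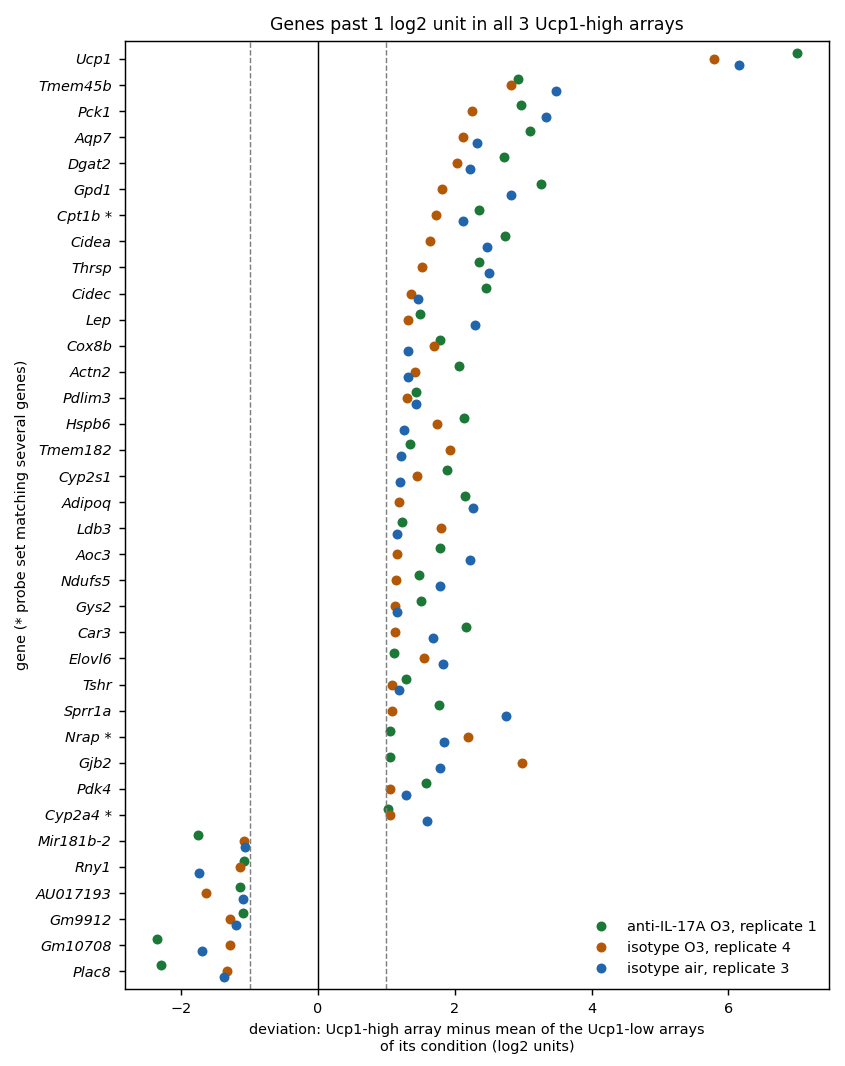
Deviation in log2 units (horizontal axis) of the 30 genes higher and the 6 genes lower by at least 1 unit (dashed lines) in all 3 Ucp1-high arrays, with 1 point for each array and genes ordered by the deviation nearest to 0. Ucp1 lay at 5.79 to 7.01, and the other genes lay below 3.5 in each array.

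Among the genes with the largest shared deviations after Ucp1 were enzymes and a channel of glycerol and triglyceride metabolism. Adipocytes build triglyceride on glycerol 3-phosphate, which Gpd1 makes from a glycolytic intermediate and Pck1 supplies through glyceroneogenesis. Pck1 had signals of 7.48, 6.94 and 8.06 in the Ucp1-high arrays (anti-IL-17A O3 replicate 1, isotype O3 replicate 4 and isotype air replicate 3, the order kept from here on) and 4.37 to 5.05 in the Ucp1-low arrays. Gpd1 had 8.40, 7.01 and 7.88 in the Ucp1-high arrays and 4.84 to 5.36 in the Ucp1-low arrays. Neither gene overlapped between the kinds of array. Dgat2, which adds the last fatty acid to triglyceride, had 9.12, 8.45 and 8.58 against 5.84 to 6.75. Aqp7, the channel through which adipocytes release glycerol, had 6.83, 5.75 and 6.29 against 3.32 to 4.09. The fold changes of Aqp7 were 8.56, 4.36 and 5.03.

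Tmem45b, a membrane protein gene that is in none of the lists, had the largest shared deviation after Ucp1. Its signals were 6.86, 7.10 and 7.80 in the Ucp1-high arrays, against 3.83 to 4.61 in the Ucp1-low arrays, and the wild-type array had 4.93. Cidec, which fuses lipid droplets, had 8.17, 7.21 and 7.43 against 5.37 to 6.15. Thrsp, a regulator of fatty acid synthesis, had 7.90, 6.71 and 8.89 against 5.10 to 6.43, and its Ucp1-low arrays differed by condition, with 5.10 to 5.64 in the O3 arrays and 6.31 to 6.43 in the air arrays. Cox8b, a subunit of cytochrome c oxidase used in brown fat and striated muscle, had 8.66, 8.45 and 8.42 against 6.47 to 7.44. All 4 genes were above every Ucp1-low array in each Ucp1-high array.

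Of the hormones made by fat, Lep and Adipoq were among the 30 genes. Lep, which encodes leptin, had 5.99, 6.51 and 7.53 in the Ucp1-high arrays and 4.43 to 5.47 in the Ucp1-low arrays. Adipoq, which encodes adiponectin, had 7.54, 7.38 and 8.73 against 5.12 to 6.68. Both were highest in isotype air replicate 3. The wild-type array had 4.76 for Lep, within the range of the Ucp1-low arrays, and 7.28 for Adipoq, above that range. Of the 30 genes, the wild-type array lay above all 8 Ucp1-low arrays in 9, among them Car3 with 9.60, a carbonic anhydrase abundant in adipocytes and muscle, and below all 3 Ucp1-high arrays in 28. Over all genes it lay above all 8 Ucp1-low arrays in 7.36%. As 1 array of another genotype, it allows no test.

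The brown adipocyte list had 5 of 25 members at least 1 unit higher in all 3 arrays, against 0.139% of all genes measured. Above 0 in all 3 arrays were 20 of 25, against 16.8% of all genes measured. Beside Ucp1, Cidea and Cox8b these 5 were Pdk4, a kinase that shuts off pyruvate dehydrogenase, and Cpt1b, whose probe set matches several genes. Ucp1 chose the arrays, and Cox8b is also used in striated muscle. Skeletal muscle genes were high in isotype O3 replicate 4 and isotype air replicate 3, as given below. The mean signal of the cardiac muscle list was above its Ucp1-low range in all 3 Ucp1-high arrays. The part of muscle in the deviations of this list was not tested. Pdk4 had 9.95, 9.69 and 9.47 in the Ucp1-high arrays and 7.74 to 9.24 in the Ucp1-low arrays. Members short of 1 unit in at least one array included Otop1, with deviations of 1.07, 0.57 and 0.48, Dio2, the enzyme that activates thyroid hormone, with 1.36, 0.13 and 0.67, and Cox7a1, with 0.37, 0.73 and 1.40. Ppargc1a, the coactivator of mitochondrial genes, deviated by 0.0, 0.92 and 0.43. The median deviation of the list was 0.94, 0.69 and 0.70. In 10 of the 25 members, Ucp1 among them, all 3 Ucp1-high arrays lay above all 8 Ucp1-low arrays, against 1.93% of all genes.

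Over all genes measured, 0.139% were at least 1 unit higher in all 3 arrays and 16.8% were above 0 in all 3. In 1.93% of genes all 3 Ucp1-high arrays lay above all 8 Ucp1-low arrays. Of 27 general adipocyte genes, 8 were at least 1 unit higher in all 3 arrays (Pck1, Aqp7, Dgat2, Gpd1, Thrsp, Cidec, Adipoq and Car3). Of the 27, 22 were above 0 in all 3, and the medians were 1.41, 0.57 and 0.89. In 17 of the 27, all 3 Ucp1-high arrays lay above all 8 Ucp1-low arrays. Fabp4, the fatty acid binding protein of adipocytes, deviated by 1.53, 0.82 and 1.55, and Plin1, which coats the lipid droplet, by 1.44, 0.56 and 0.74. Pparg, the regulator of adipocyte formation, deviated by -0.28, 0.55 and 0.49, and Adrb3, the receptor through which noradrenaline acts on mouse fat, by 0.24, -0.23 and -0.02. The white adipocyte list had Lep as its only member past 1 unit in all 3 of 10 measured, and 3 of 10 were above 0 in all 3. In 2 of these 10 genes all 3 Ucp1-high arrays lay above all 8 Ucp1-low arrays. Retn, the hormone resistin of mouse white fat, deviated by 0.36, 0.11 and 0.50. None of 6 beige adipocyte genes passed 1 unit in all 3, and 2 of 6 were above 0 in all 3. In 1 of the 6, all 3 Ucp1-high arrays lay above all 8 Ucp1-low arrays. Among 12 transcription factors and regulators of brown identity none passed 1 unit in all 3, while 7 of 12 were above 0 in all 3 and 0 below, with medians of 0.12, 0.18 and 0.21, and none had all 3 Ucp1-high arrays above all 8 Ucp1-low arrays. Prdm16 of the last list, for example, deviated by 0.76, 0.04 and 0.16, and Ebf2 by 0.14, 0.06 and 0.75.

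Among the 6 uncoupling proteins and their relatives, Ucp1 alone passed 1 unit in all 3 arrays. Ucp3, found in brown fat and skeletal muscle, had 5.27, 5.71 and 5.23 in the Ucp1-high arrays and 4.39 to 4.90 in the Ucp1-low arrays, with deviations of 0.70, 1.04 and 0.70. Ucp2, which many tissues express, had 9.36, 8.89 and 9.03 against 8.13 to 9.23, so that its ranges overlapped. Of the 8 CIDE and perilipin genes, Cidea and Cidec passed 1 unit in all 3. In 5 of these genes all 3 Ucp1-high arrays lay above all 8 Ucp1-low arrays, against 1.93% of all genes. Plin5, the perilipin of oxidative tissues, stayed at 3.92 to 4.38 in the Ucp1-high arrays and 4.05 to 4.32 in the Ucp1-low arrays.

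The lists of enzymes that use or make fatty acids and of mitochondrial energy genes had lower medians than the general adipocyte list in each array. Except for oxidative phosphorylation, most members of these enzyme lists deviated in the same direction. Over all genes measured, 16.8% were above 0 in all 3 arrays. In the fatty acid oxidation list 19 of 25 members were above 0 in all 3 arrays, with medians of 0.59, 0.49 and 0.59. At least 1 unit higher in all 3 was 1 member. In 15 of the 25, all 3 Ucp1-high arrays lay above all 8 Ucp1-low arrays, against 1.93% of all genes. Acsl1, which activates long-chain fatty acids, deviated by 1.10, 0.93 and 0.93, the largest shared deviation in the list among probe sets of 1 gene. In the TCA cycle list 19 of 25 were above 0, with medians of 0.30, 0.36 and 0.49, and in the fatty acid synthesis list 14 of 21, with medians of 0.88, 0.34 and 0.57. At least 1 unit higher in all 3 were 1 TCA cycle gene and 3 fatty acid synthesis genes. All 3 Ucp1-high arrays lay above all 8 Ucp1-low arrays in 12 and 5 genes of these lists. Elovl6, which lengthens palmitate, had 8.82, 9.10 and 8.84 against 6.52 to 7.94. The 63 genes of oxidative phosphorylation had medians of -0.02, 0.03 and 0.21, and Cox8b was their only member past 1 unit in all 3. Of the 63, 19 were above 0 in all 3 arrays and 6 below, and in 3 all 3 Ucp1-high arrays lay above all 8 Ucp1-low arrays. Ndufs5, a complex I subunit that was not in this list, also passed 1 unit in all 3 and is given below. Among 12 genes of adrenergic signalling and lipolysis, none passed 1 unit in all 3. Lipe, the hormone-sensitive lipase, deviated by 2.06, 0.20 and 0.73.

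**Figure D3:**
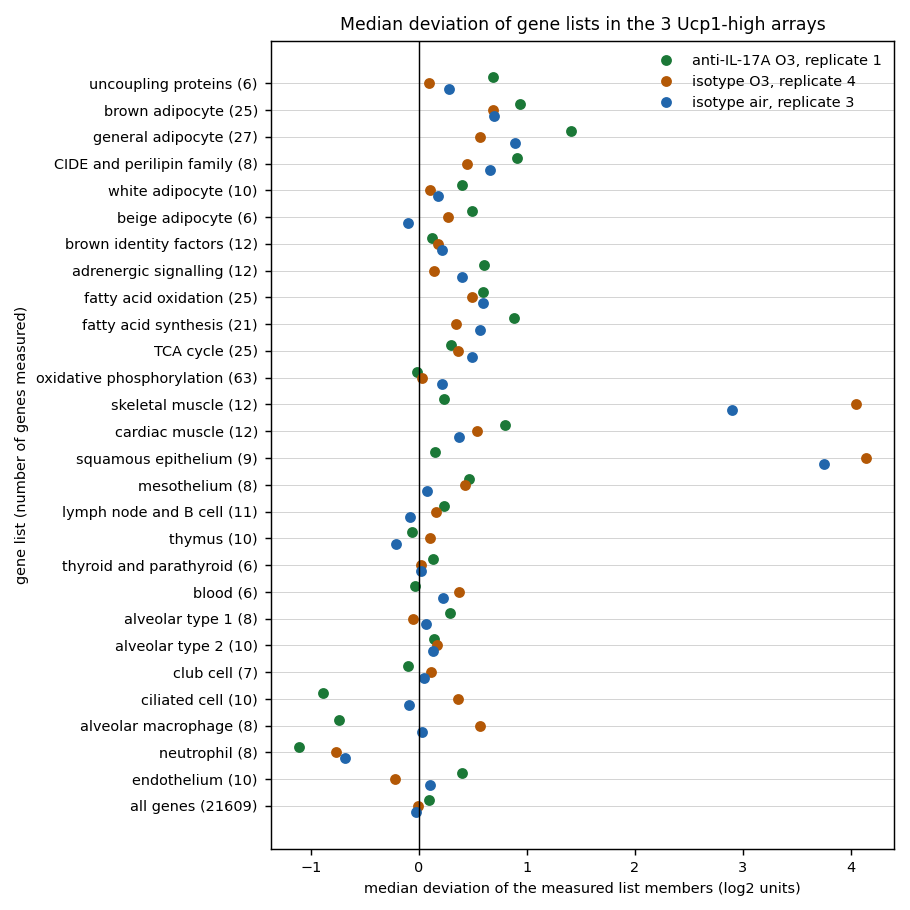
Median deviation in log2 units (horizontal axis) of the measured members of gene lists, with the number of genes in parentheses, in each Ucp1-high array. The general adipocyte list lay at 1.41, 0.57 and 0.89, and the skeletal muscle and squamous epithelium lists lay near 0 in anti-IL-17A O3 replicate 1 and at 2.90 to 4.14 in the other 2.

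The proximal promoters of 4 of the 30 genes are shown because these genes span heat production (Ucp1), glycerol supply (Pck1), glycerol release (Aqp7) and hormone secretion (Adipoq). Each is the 250 bases before the first-listed transcription start, 5′ to 3′ on the strand of the gene, from RefSeq on GRCm38.p6. Capitals mark AGGTCA or its reverse complement TGACCT, the half-site that nuclear receptors such as the PPARs recognise. The positions were chr8:83290098-83290347 on the plus strand for Ucp1, chr2:173152823-173153072 on the plus strand for Pck1, chr4:41048137-41048386 on the minus strand for Aqp7 and chr16:23146286-23146535 on the plus strand for Adipoq.
Ucp1: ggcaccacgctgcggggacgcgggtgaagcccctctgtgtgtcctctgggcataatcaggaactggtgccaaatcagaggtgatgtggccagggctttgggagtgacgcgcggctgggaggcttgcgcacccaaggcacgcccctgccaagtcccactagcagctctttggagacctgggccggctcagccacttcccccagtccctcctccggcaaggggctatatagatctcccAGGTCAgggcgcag
Pck1: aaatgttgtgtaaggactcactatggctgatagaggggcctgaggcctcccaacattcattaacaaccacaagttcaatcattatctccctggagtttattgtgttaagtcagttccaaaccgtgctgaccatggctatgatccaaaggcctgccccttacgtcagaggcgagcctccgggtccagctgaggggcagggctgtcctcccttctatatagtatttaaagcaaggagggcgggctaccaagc
Aqp7: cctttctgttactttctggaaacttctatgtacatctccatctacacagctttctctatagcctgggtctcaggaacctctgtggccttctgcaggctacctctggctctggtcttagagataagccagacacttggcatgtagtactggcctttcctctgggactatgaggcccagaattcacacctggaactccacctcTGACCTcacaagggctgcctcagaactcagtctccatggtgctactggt
Adipoq: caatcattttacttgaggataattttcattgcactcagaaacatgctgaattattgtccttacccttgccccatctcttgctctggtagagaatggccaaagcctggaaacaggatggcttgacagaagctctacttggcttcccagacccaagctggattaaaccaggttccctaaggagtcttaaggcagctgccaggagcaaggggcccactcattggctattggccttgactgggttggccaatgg
The half-site began 14 bases before the start in Ucp1 and 49 bases before it in Aqp7, and the windows of Pck1 and Adipoq held none. A promoter was listed for 21 of the 30 genes, and 7 of these (33.3%) held AGGTCA on either strand, against 13.8% of 27025 promoters of the same length. Of the other motifs searched on both strands, a direct repeat of AGGTCA with 1 base between, which contains the half-site, was in 0 of the 21 and in 0.037% of all promoters, TATAAA was in 3 (14.3%) and in 13%, and the palindrome of TGAC, the core of the cAMP response element, was in 1 (4.76%) and in 1.62%. These are matches of letters in short windows, given as a description.

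The remaining shared genes were in no adipocyte list, and apart from Actn2, Tshr and Sprr1a they were named after their values were seen. Actn2, Ldb3 and Pdlim3 encode proteins of the Z-disc of striated muscle, and Hspb6 a small heat shock protein abundant in muscle. Actn2 had 8.49, 7.98 and 7.64 in the Ucp1-high arrays against 5.69 to 7.16 in the Ucp1-low arrays. Hspb6 had 8.68, 8.52 and 7.67 against 6.09 to 7.16. Tshr, the thyrotropin receptor, had 5.09, 5.04 and 5.20 against 3.67 to 4.16. In the same list, the thyroid gene Tg deviated by 0.23 or less in each array, and Pth, the parathyroid hormone, by 0.17 or less. Sprr1a, a precursor of the cornified envelope, had 10.57, 10.58 and 9.27, but its Ucp1-low arrays ran between 7.83 and 9.77 after O3 and between 5.75 and 7.22 in air, so that isotype air replicate 3 overlapped the O3 arrays. Gjb2, which encodes connexin 26, had 6.41, 8.48 and 6.88 against 4.97 to 5.96. Aoc3, an amine oxidase of adipocytes and smooth muscle, had 6.88, 6.34 and 7.35 against 4.79 to 5.46. Tmem182, Cyp2s1 and Gys2, a glycogen synthase of liver, were also above every Ucp1-low array. Ndufs5, a subunit of complex I, had 8.57, 7.75 and 8.61 and overlapped the Ucp1-low arrays, which ran from 6.02 to 8.16. Nrap and Cyp2a4 were read by probe sets that match several genes and are uncertain.

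At least 1 unit lower in all 3 Ucp1-high arrays were 6 genes, 0.0278% of the genes measured. They were Plac8, Gm10708, AU017193, Gm9912, Rny1 and Mir181b-2. Of these, 4 lay below all 8 Ucp1-low arrays in all 3 Ucp1-high arrays, as 0.912% of all genes did. Plac8 had 5.19, 5.01 and 5.86 in the Ucp1-high arrays. In the Ucp1-low arrays it ran between 5.84 and 8.44, with 8.44 and 6.51 after anti-IL-17A and O3, so that it overlapped by a single array. Rny1, a small RNA of Ro ribonucleoproteins, had 5.10, 5.49 and 5.11 against 5.71 to 7.43. Mir181b-2, a microRNA precursor, had 3.87, 4.78 and 5.18 against 5.38 to 6.43. The neutrophil list had 6 of 8 members below 0 in all 3 arrays, against 13.4% of all genes, and medians of -1.11, -0.77 and -0.68. Its mean signal was 6.70, 6.65 and 7.38 in the Ucp1-high arrays, inside the 6.64 to 8.88 of the Ucp1-low arrays, which reached both ends of that range within the air group.

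The 3 Ucp1-high arrays were not alike beyond these genes. The genes at least 1 unit higher numbered 1109 in anti-IL-17A O3 replicate 1, 400 in isotype O3 replicate 4, and 249 in the air array, replicate 3. The genes at least 1 unit lower numbered 1470, 57 and 38. Measured against the other Ucp1-low arrays of its condition, a single Ucp1-low array had 17 to 559 genes higher and 8 to 559 lower, where the upper figure came from anti-IL-17A arrays set against only 1 other. Anti-IL-17A O3 replicate 1 also stood apart over all genes, with a mean correlation of 0.947 with the other 11 arrays, against 0.972 for isotype O3 replicate 4, 0.977 for isotype air replicate 3 and 0.978 to 0.982 for the rest. In it, the median deviation was -0.89 for the ciliated cell list and -0.74 for the alveolar macrophage list. The mean signal of the ciliated cell list was 5.44 in that array, and 7.07 in replicate 2 and 5.46 in replicate 4, the 2 arrays of its baseline, so that this deviation came from replicate 2. The mean of the alveolar macrophage list was 8.22 in that array, and 9.16 and 8.70 in the same 2 arrays. The part of this difference in its deviations was not tested. Markers of the lung itself were present throughout, with a mean signal of the alveolar type 2 list of 9.79 to 9.84 in the Ucp1-high arrays and 9.57 to 9.86 in the Ucp1-low arrays. Not every lung list was as even. The endothelium list had means of 9.28, 8.36 and 8.79 in the Ucp1-high arrays and 8.60 to 8.89 in the Ucp1-low arrays. It thus lay above that range in anti-IL-17A O3 replicate 1 and below it in isotype O3 replicate 4.

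Isotype O3 replicate 4 and isotype air replicate 3 shared a second group of genes. They had 203 genes at least 1 unit higher in common, 50.8% of those of the first and 81.5% of those of the second, and 173 of them were not higher by 1 unit in anti-IL-17A O3 replicate 1. Across genes the deviations of these 2 arrays correlated with Pearson's r of 0.71 and Spearman's rho of 0.39 (21609 genes, which are not independent replicates). The deviations of anti-IL-17A O3 replicate 1 had r of -0.02 with isotype O3 replicate 4 and 0.17 with isotype air replicate 3. All deviations come from arrays normalized together, and no pair of them shares a baseline array.

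The 173 genes were 0.801% of the genes measured. Of them, 10 belonged to the 12 of the skeletal muscle list and 6 to the 9 of the squamous epithelium list. Genes named here beyond Tnnt3 were chosen after their values were seen. Tnnt3, troponin T of fast skeletal muscle, had 6.63, 10.48 and 10.30 in the Ucp1-high arrays and 5.85 to 6.54 in the Ucp1-low arrays. Myh1, a myosin heavy chain of fast skeletal muscle, had 3.74, 9.27 and 8.50 against 3.28 to 3.69. Mylpf, a fast myosin light chain, had 4.19, 8.70 and 8.80 against 3.47 to 4.52. The medians of the skeletal muscle list were 0.23, 4.05 and 2.90, and its mean signal was 4.53, 7.75 and 7.27 in the Ucp1-high arrays against 4.16 to 4.37 in the Ucp1-low arrays. Myh2, another skeletal myosin, had deviations of only 0.11, 0.08 and 0.14.

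The squamous genes were keratins and cornification proteins that line the mouth, oesophagus and skin. Krt4 had 4.31, 10.75 and 10.42 in the Ucp1-high arrays and Krt13 had 4.13, 10.64 and 10.33. In the Ucp1-low arrays Krt4 lay between 3.66 and 5.91 and Krt13 between 3.85 and 6.13, and anti-IL-17A O3 replicate 2 held the highest value of both. Defb4, an epithelial defensin, had 3.52, 10.79 and 10.30 against 2.74 to 6.11, again with anti-IL-17A O3 replicate 2 as the highest Ucp1-low array. That array had a Ucp1 signal of 3.50. The medians of the list were 0.15, 4.14 and 3.75. The mean signal of the list was 4.90, 8.55 and 8.09 in the Ucp1-high arrays, and 4.18 to 5.12 in the Ucp1-low arrays, with the highest in anti-IL-17A O3 replicate 2. In anti-IL-17A O3 replicate 1 the squamous mean thus lay within the Ucp1-low range. Of 12 skeletal muscle genes, 11 deviated above 0 in all 3 arrays, against 16.8% of all genes. In 8 of the 12, all 3 Ucp1-high arrays lay above all 8 Ucp1-low arrays, against 1.93% of all genes. None of the 12 reached 1 unit in anti-IL-17A O3 replicate 1. The part of these tissues in the shared deviations of isotype O3 replicate 4 and isotype air replicate 3 was not tested.

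**Figure D4:**
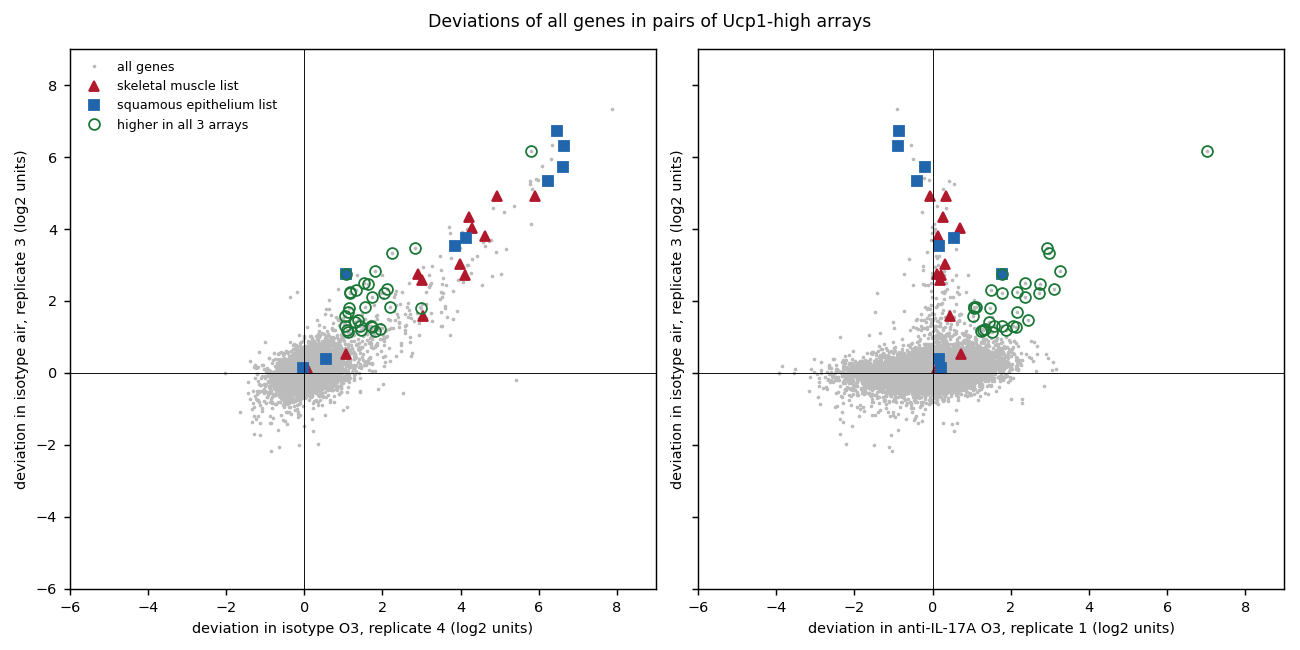
Deviations in log2 units of all genes (grey) in isotype air replicate 3 (vertical axes) against isotype O3 replicate 4 (left) and anti-IL-17A O3 replicate 1 (right). Skeletal muscle (triangles) and squamous epithelium genes (squares) lie mostly along the diagonal on the left, and on the right they lie below 1 on the horizontal axis except Sprr1a, whereas the 30 shared genes (open circles) are above 1 on both axes.

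Other tissues that lie beside the lung were less marked in isotype O3 replicate 4 and isotype air replicate 3. The cardiac muscle list had medians of 0.80, 0.54 and 0.37. Its mean signal was 8.45 to 8.71 in the Ucp1-high arrays and 7.56 to 8.44 in the Ucp1-low arrays, so that this list was high in every lung. Of its 12 genes, 8 were above 0 in all 3 arrays, against 16.8% of all genes. In 3 of the 12, all 3 Ucp1-high arrays lay above all 8 Ucp1-low arrays, against 1.93% of all genes. In anti-IL-17A O3 replicate 1, 4 of the 12 were at least 1 unit higher. The part of cardiac muscle in the shared deviations was not tested. Csrp3, a muscle protein of the Z-disc, deviated by 0.88, 1.0 and 0.95. The thymus list had medians of -0.06, 0.10 and -0.21, the lymph node and B cell list 0.23, 0.16 and -0.08, and the mesothelium list 0.46, 0.43 and 0.08. No member of these 3 lists passed 1 unit in all 3 arrays.

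Because each condition held 1 Ucp1-high array, the comparisons of the study's design carried these arrays on both sides. O3 was compared with air in the isotype groups, by limma over all 12 arrays with 1 mean per condition, and 128 genes were called higher and 95 lower at a Benjamini-Hochberg adjusted p under 0.05, 1.03% of genes. With quantile normalization these were 72 and 93, and with array medians subtracted 86 and 107. None of the 30 shared higher genes was called. Their median log2 difference was -0.10 with a median standard error of 0.607, against 0.00 and 0.135 over all genes. These genes, Ucp1 among them, were selected for a high value in 1 array of each condition. That choice by itself widens their standard errors here and in the comparison that follows, so nothing is read from their lack of calls. Ucp1 had a difference of 0.35 (SE 2.05, adjusted p = 0.959 from limma), with means that each included 1 Ucp1-high array of 4. In anti-IL-17A against isotype after O3, which shares the isotype O3 arrays, limma called no gene (0.0%) in this or any alternative setting, and 997 of 21609 had an unadjusted p under 0.05. Ucp1 differed there by 0.00 (SE 2.21, adjusted p = 1.0 from limma).

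Without the 3 Ucp1-high arrays, the median standard error of the 30 genes in O3 against air was 0.19, a fall fixed by their selection. In that fit 1 gene of 21609 (0.00463%) was called, and it was Thrsp, with a log2 difference of -1.21 (SE 0.0913, adjusted p = 0.0265 from limma). With all arrays the difference of Thrsp was -1.45 (SE 0.698, adjusted p = 0.366 from limma). None of the 223 genes called with all arrays was called without the Ucp1-high arrays, while all 223 kept their direction. Their median size was 0.864 log2 units without these arrays and 0.874 with them, and their median standard error was 0.177 and 0.152. The 223 were chosen by the fit with all arrays, and both fits used the same Ucp1-low arrays. Nothing is therefore read from the kept direction and size. Fewer arrays were in the fit without the Ucp1-high arrays, and its residual degrees of freedom were 5 in place of 8. Leaving out any 1 of the 8 arrays of the comparison, Ucp1-low ones included, gave 0 to 14 calls, and a fit of the isotype O3 and air groups alone without their Ucp1-high arrays, chosen after seeing the data, gave 873. With Ucp1 above 9 as a term in the model and all arrays kept, 206 genes (0.953%) were called, of which 176 were among the 223. Of the 30 shared genes, Sprr1a was then called higher after O3, by 2.57 (SE 0.47, adjusted p = 0.0441 from limma). Thrsp was called lower, with -1.45 (SE 0.165, adjusted p = 0.0283 from limma). The term takes up the deviation for which these genes were selected, so a smaller error in this fit follows from the choice too.

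**Figure D5:**
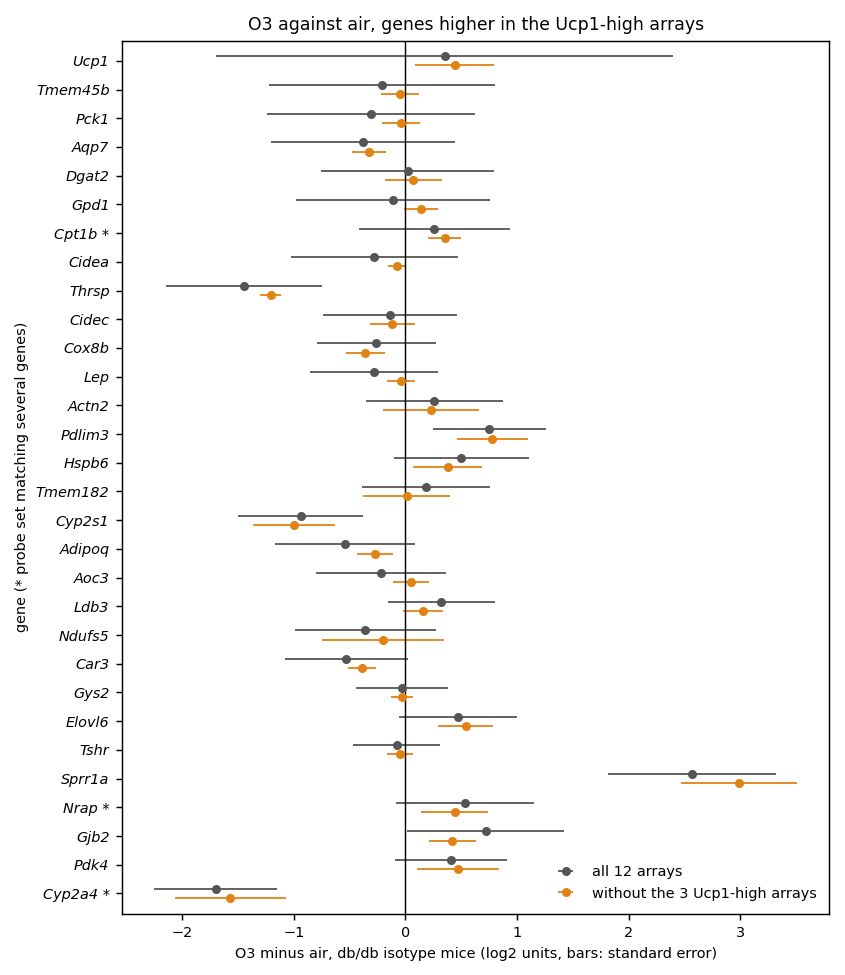
Log2 difference of O3 minus air in the db/db isotype groups (horizontal axis), with its standard error, for the 30 shared higher genes, fitted with all 12 arrays and without the 3 Ucp1-high arrays. The standard error of Ucp1 was 2.05 with all arrays and 0.354 without the Ucp1-high arrays. The genes were selected for a high value in 1 array of each condition, so the wider errors with all arrays follow from the choice.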

How the data were processed

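Lung RNA of 12 samples was measured with Affymetrix mouse gene arrays. The deposited values are log2 signals of 35556 probe sets, made by the authors with oligo and RMA (background correction, quantile normalization and probe summary), for which no versions are given in the sources used here. RMA scales all arrays to a common distribution, so a deviation is relative to the other genes of the array. The authors' columns of limma statistics for O3 against air were not used. Both deposited tables held the same signals. A gene (21609 in all) was represented by its brightest probe set on average, from those matching 1 gene where possible. The 1194 genes without a probe set of their own are uncertain.

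The Ucp1-high arrays were those above 9, and deviations were taken within condition. Comparisons of conditions used lmFit and eBayes of limma (version 3.58.1, under R 4.3.3; two-sided, Benjamini-Hochberg over all genes, adjusted p under 0.05). The fit and the count of shared genes were tested on simulated data. The number of arrays limits the precision. The members and the 33 gene lists were chosen with earlier results of these data known. Genes named are Ucp1 and Cidea, the 12 largest shared deviations and the 6 shared falls, up to 3 members of each list by smallest deviation, shared genes called in a comparison, and members of the adipocyte, uncoupling and lipid droplet lists. A gene selected in this way is left out here. Others were chosen after their values were seen, among them the brown fat enzymes and muscle, squamous and thyroid genes given beside their lists. Alternatives covered scaling, filters, baselines, cuts, model terms, the replicate block and each array left out.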

Additional observations from a re-analysis of the deposited data

Results flagged for a closer look

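Among 44 of the genes taken by the naming rule, 88 groups of 4 arrays were examined for a sample far from the other 3, and 19 had one. Chance gives about 1 in 20 groups for genes chosen without regard to their values. Most of these genes were taken for their deviations in the same arrays, so the 19 cannot be set against that rate. The array that stood apart was a Ucp1-high array in all 19, which restates the choice, also for Slc6a8, Pnpla2 and Tnnt3. In isotype O3 replicate 4 the high values were 4.83 for Cidea, 7.10 for Tmem45b, 6.71 for Thrsp, 6.51 for Lep, 10.48 for Tnnt3 and 5.04 for Tshr. In isotype air replicate 3 they were 10.12 for Ucp1, 5.73 for Cidea, 7.80 for Tmem45b, 8.06 for Pck1, 6.29 for Aqp7, 8.58 for Dgat2, 7.88 for Gpd1, 8.89 for Thrsp, 7.43 for Cidec and 7.53 for Lep. The same array was also apart for Slc6a8, the creatine transporter (6.67, with the other 3 air arrays at 6.11 to 6.18), for Pnpla2, a triglyceride lipase (8.25, others 7.28 to 7.37), and for Tnnt3 (10.30, others 5.91 to 6.54). Ucp1 itself was not apart by this measure in the isotype O3 group, where the other 3 arrays ran from 3.47 to 5.08.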

How the results depend on the processing

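The count of 30 genes shared higher was 26 to 30 with the other deposited table, quantile normalization, array medians subtracted, the mean of all probe sets, the dimmest 40% left out, a median baseline and a baseline over all 8 Ucp1-low arrays. Those counts held 24 to 30 of the 30 genes. A cut of 0.5 gave 174 genes higher and 38 lower, and a cut of 2 gave 5 and 0. With 1 array left out the counts ran from 24 to 203 higher and from 3 to 21 lower. The 203 came from leaving out anti-IL-17A O3 replicate 1 (10 lower). The lower count was 21 without isotype O3 replicate 4, 16 without isotype air replicate 3 and 3 without isotype O3 replicate 2. Leaving out a Ucp1-high array asks for agreement of only 2. Of 807 deviations of 45 named genes under the alternatives, 792 moved by less than 1 SD. That SD was the largest of the within-condition SDs of the Ucp1-low arrays, of which that of anti-IL-17A rested on 2 arrays. Leaving out an array often leaves a deviation set in another condition unchanged, so many of the 792 could hardly move. Of the 807, 16 changed sign, all of genes whose deviation was 0.54 or less in size.

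The 223 calls of O3 against air became 1 without the 3 Ucp1-high arrays, 1674 with only the 8 arrays of both groups, 873 with those 8 less their Ucp1-high arrays (chosen after seeing the data) and 2462 with array weights. With 1 array left out the calls ran from 0 to 810. The 810 came without anti-IL-17A O3 replicate 1, also chosen after seeing the data, and leaving out any 1 of the 8 arrays of the comparison gave 14 or fewer. The cause was not tested. A trended and robust variance gave 110 higher and 109 lower. A replicate block gave 236 calls, 170 higher and 66 lower. Same-numbered arrays did not deviate together in every pair (r from -0.409 to 0.445), so the numbers were not taken as pairs. For anti-IL-17A against isotype the block gave 0 calls.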
